A study of Mus musculus with 25 samples.

Results

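The polyamine synthesis and breakdown genes are 10 genes: Odc1, Amd1, Srm and Sms of synthesis, Oaz1, Oaz2 and Azin1 of the control of ornithine decarboxylase, and Sat1, Smox and Paox of breakdown. They were found by symbol as 10 of the 25006 entries of the deposited expression table. The members were chosen by the values of this contrast: Smox was picked because it had the smallest p among the genes that lay higher after anti-CD73 in these same libraries, and the other 9 were taken as the rest of its pathway. The values of the 10 genes are therefore a description of this contrast, given with their spread and with no p. Of the 10, 9 had a mean of at least 10 normalized counts and entered the fit over all genes, and Paox did not.

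The study sequenced RNA from tumours of E0771, a mammary carcinoma line of C57BL/6 mice, and from spleen CD8+ T cells kept in culture. The 6 tumour libraries used here come from C57BL/6 hosts, 3 from the group labelled con and 3 from mice given an antibody against CD73 every 3 days. CD73 is the ecto-5'-nucleotidase that forms extracellular adenosine from AMP. The comparison asks which transcripts differ in the tumour preparation when CD73 is targeted. The sources used here do not give what the control mice received, the dose of antibody, or the age of the animals. The labels call the material enriched CD8+ T cells. No label says that replicates are separate animals, so any p-value below reflects only how far these libraries vary, in part perhaps for technical reasons. The other 19 of the 25 samples, all of cultured cells, were not analysed here.

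Polyamines are small cations that bind nucleic acids and are needed for growth and translation. Ornithine decarboxylase (Odc1) makes putrescine, S-adenosylmethionine decarboxylase (Amd1) makes the aminopropyl donor, and spermidine synthase (Srm) and spermine synthase (Sms) use that donor to build spermidine and then spermine. Antizymes (Oaz1, Oaz2), whose translation needs a frameshift that polyamines promote, send ornithine decarboxylase to the proteasome, and the antizyme inhibitor Azin1 holds antizymes away from it. On the way back, Sat1 acetylates spermine and spermidine for export or for oxidation by Paox, while Smox oxidizes spermine directly and releases hydrogen peroxide. Several of these proteins are controlled at translation and degradation, so a transcript level is not a measure of enzyme.

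Recovered reads ranged from 10180624 to 17161679 per library. Transcripts of T cells were scarce: 9 of 12 T cell markers matched the table and together took between 0.00107% and 0.00456% of reads, with Cd8a between 7.60 and 122 normalized counts. Macrophage markers took between 0.0705% and 0.198% of reads, so the values below describe a mixed preparation and not CD8+ T cells alone. In such bulk material, fewer cells of a type and less RNA per cell cannot be told apart. Control replicate 1 stood apart from the other 2 controls, and it lay outside the range of the other 5 libraries for 62.8% of the 12262 genes tested. Values without it are given beside most of the results whose call, direction or size it changes.

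Among the 9 tested members, Smox lay higher after anti-CD73, Amd1, Sms and Odc1 lay lower, and the values of the other 5 overlapped between the groups (n = 3 libraries per group). The groups did not overlap for 4 of the 9, against 23.5% of all genes tested (11.5% higher and 12.0% lower). By limma with Benjamini-Hochberg adjustment 0% of all genes tested had an adjusted p under 0.05. The rule used this contrast, so nothing is read from the members' count. On the log2(normalized count + 1) scale, used for every difference below, 4 of the 9 lay higher and 5 lower, with a median difference of -0.11, while the median over all genes tested was 0.0039.

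**Figure D1:**
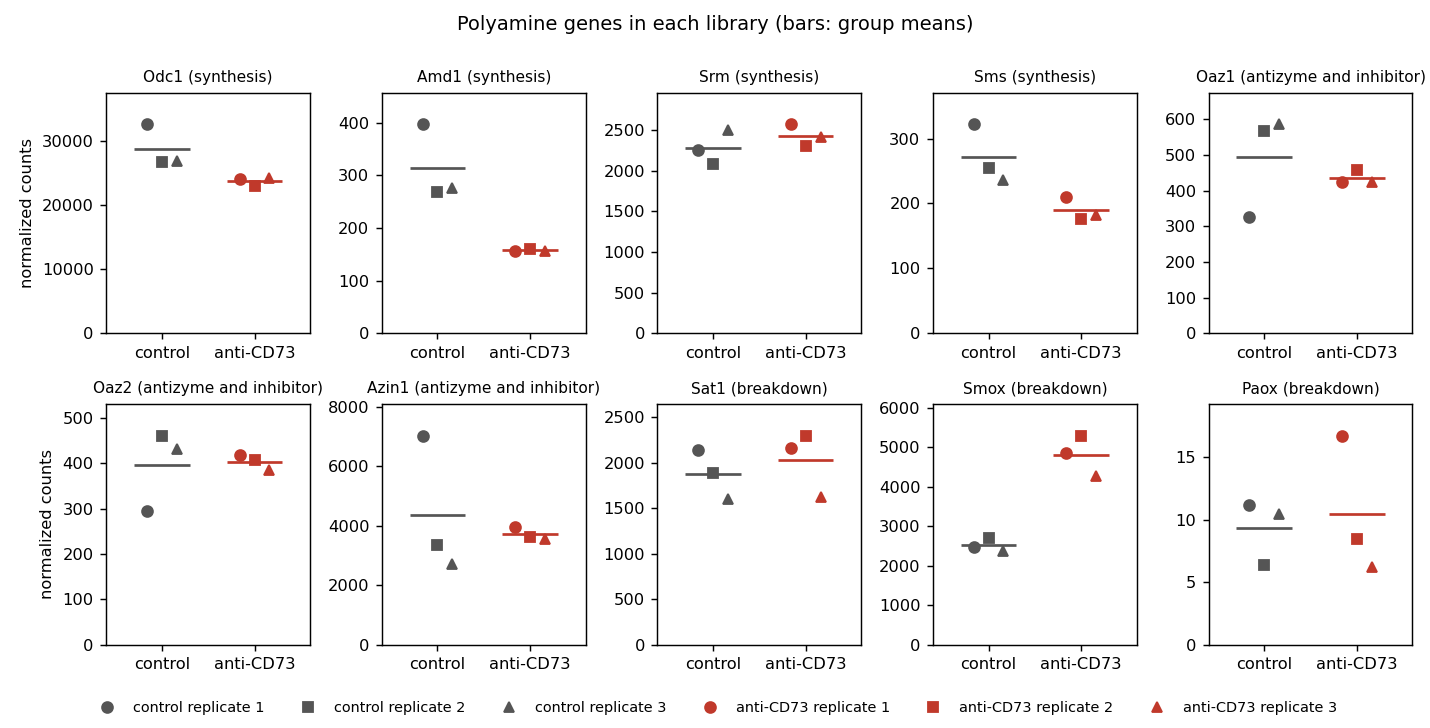
Normalized counts (vertical axis, from 0, a separate scale per gene) of the 10 polyamine genes in each library, with points for libraries and bars for the mean of each group of 3. The anti-CD73 libraries lie between 4284 and 5302 for Smox against 2369 to 2708 in the controls, and between 156 and 160 for Amd1 against 269 to 397.

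For the 3 members with the largest differences, the 250 bases before a transcript start that RefSeq lists in build GRCm38.p6, the assembly of mm10, are shown for reference. For Smox that start lies just inside the gene span given below, so the last 4 bases of its window are within the span. Each is printed 5′ to 3′ on the strand of the gene. Capitals mark 2 motifs searched on both strands, the GC box GGGCGG, which appears as its complement where it lies on the other strand, and the E-box CACGTG, which MYC and its partners bind. The windows are Smox at chr2:131491612-131491861 (+ strand), Amd1 at chr10:40302189-40302438 (- strand) and the first of 2 windows listed for Sms, at chrX:157492288-157492537 (- strand).
Smox: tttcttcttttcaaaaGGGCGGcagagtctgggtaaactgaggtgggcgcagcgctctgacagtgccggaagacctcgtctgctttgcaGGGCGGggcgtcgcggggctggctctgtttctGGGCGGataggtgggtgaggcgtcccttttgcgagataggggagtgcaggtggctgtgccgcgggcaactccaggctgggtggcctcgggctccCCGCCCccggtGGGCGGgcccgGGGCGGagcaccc
Amd1: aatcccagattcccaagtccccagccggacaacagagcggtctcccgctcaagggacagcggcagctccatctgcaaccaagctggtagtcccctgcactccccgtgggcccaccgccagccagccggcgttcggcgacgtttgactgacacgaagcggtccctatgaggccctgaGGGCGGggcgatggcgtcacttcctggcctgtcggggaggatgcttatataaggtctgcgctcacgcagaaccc
Sms: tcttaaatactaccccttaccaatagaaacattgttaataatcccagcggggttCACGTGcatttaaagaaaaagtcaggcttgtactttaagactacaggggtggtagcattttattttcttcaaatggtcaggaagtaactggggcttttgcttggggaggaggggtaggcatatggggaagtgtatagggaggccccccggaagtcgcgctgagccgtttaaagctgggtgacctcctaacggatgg
The Smox window holds 6 GC boxes and the Amd1 window 1, while this Sms window holds none of these and 1 E-box, 196 bases before the start. Of the 32817 mouse promoter windows of this length, 32.7% hold a GC box, 4.09% hold 4 or more, and 6.02% hold an E-box. Among the 8 members with a listed window, the Odc1 window holds 4 GC boxes and no other member's window holds CACGTG. The second Sms window holds 4 GC boxes, of which 3 overlap. G and C make up 68.0% of the Smox window, 80.0% of the Odc1 window and 75.2% of the second Sms window. The median over all windows is 52.4%, and the shares with GC boxes given above do not take this into account. A match describes the letters only and is not a measured binding site. Only these 250 bases were searched, so a window without a motif does not show that the gene lacks it elsewhere. Srm and Azin1 had no listed window.

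Amd1 (ENSMUSG00000075232; chr10:40287458-40302188), which encodes the enzyme that makes the aminopropyl donor for both later steps, stood at 397, 269 and 277 normalized counts in control replicates 1, 2 and 3. After anti-CD73 it stood at 157, 160 and 156 in replicates 1, 2 and 3. All 3 anti-CD73 libraries were low and close together, and every control was above them. The difference was -0.97 with a standard error of 0.19, a fold of 0.512, and it was -0.79 without control replicate 1, the highest library. RefSeq also lists a paralogue, Amd2, which had between 0 and 2.53 normalized counts in these libraries.

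Sms (ENSMUSG00000071708; chrX:157443851-157492287), which turns spermidine into spermine, had 322, 255 and 236 normalized counts in the controls. The anti-CD73 libraries had 210, 177 and 182, below the lowest control in each case. The difference was -0.50 (SE 0.17), a level 29.5% lower, and -0.37 without control replicate 1.

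Odc1 (ENSMUSG00000011179; chr12:17544808-17551502), the enzyme that commits ornithine to the pathway, had 32559, 26753 and 26843 normalized counts in the controls. It had 24021, 22873 and 24256 after anti-CD73, so that the groups were separate, with the highest anti-CD73 library and the lowest control nearest to each other. The difference was -0.27 (SE 0.13). It was -0.18 without control replicate 1 and -0.056 with quantile normalization. Over the 6 libraries, Odc1 followed Sms and Amd1 with Pearson r of 0.96 and 0.95 on the log2 scale, points that share their libraries, their scaling and the separation of the groups.

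Srm (ENSMUSG00000006442; chr4:148591513-148594619), the spermidine synthase that works between Odc1 and Sms, did not share this pattern. Its controls had 2257, 2079 and 2494 normalized counts and its anti-CD73 libraries 2569, 2300 and 2416. The groups overlapped and the difference was 0.095 (SE 0.11), smaller than its standard error.

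**Figure D2:**
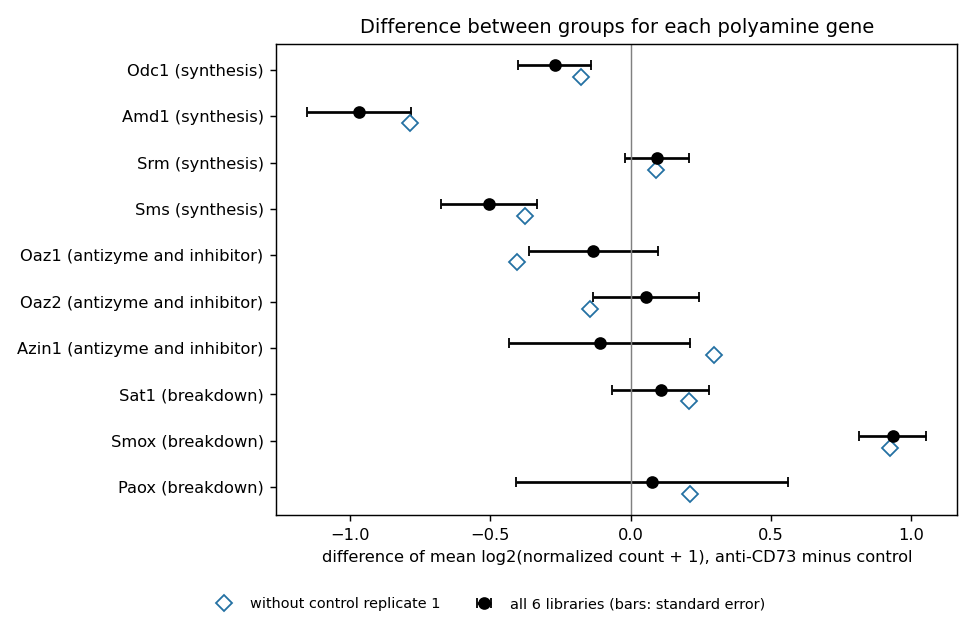
Difference of the group means of log2(normalized count + 1), anti-CD73 minus control (horizontal axis), for each gene; black points use all 6 libraries with the standard error as bars, and white diamonds leave out control replicate 1. Smox stays near 0.93 and 0.92, and Azin1 turns from -0.11 to 0.30.

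Smox (ENSMUSG00000027333; chr2:131491858-131525183), the spermine oxidase, had 2478, 2708 and 2369 normalized counts in the controls. After anti-CD73 it had 4871, 5302 and 4284. The lowest anti-CD73 library lay far above the highest control. The group means were 2518 ± 173 and 4819 ± 511 (SD, n = 3). The difference was 0.93 (SE 0.12), a fold of 1.91, and 0.92 without control replicate 1, in which Smox did not stand apart from the other controls (-0.03 against their mean).

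The ratio of Smox to Sms counts, the oxidase that removes spermine against the synthase that makes it, can be compared between libraries although the genes differ in length. It was 7.70, 10.6 and 10.02 in the controls and 23.2, 30.0 and 23.5 after anti-CD73. All 3 anti-CD73 ratios were above all 3 control ratios, and the mean of the first was 2.71 times that of the second. Since Smox was separate upward and Sms downward, the ratios had to separate. This ratio is made of 2 members chosen with the contrast known and has no test.

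Sat1 (ENSMUSG00000025283; chrX:155213126-155216449), the acetyltransferase that starts the other route of breakdown, had 2137, 1889 and 1595 normalized counts in the controls. It had 2156, 2298 and 1624 after anti-CD73, and the groups overlapped. The difference was 0.11 (SE 0.17), 0.21 without control replicate 1 and -0.0041 without control replicate 3. Smox per Sat1 was 1.16, 1.43 and 1.49 in control libraries and 2.26, 2.31 and 2.64 in anti-CD73 libraries. Smox was picked for being higher in this contrast, so this ratio is a description and has no test.

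Paox (ENSMUSG00000025464; chr7:140115735-140134334), which oxidizes the acetylated polyamines that Sat1 makes, was near the limit of detection. It had 11, 5 and 14 reads in the controls and 18, 8 and 6 after anti-CD73. The exact 95% Poisson interval of the 5 reads runs from 1.62 to 11.7 and that of the 18 reads from 10.7 to 28.4, which covers counting error only. A difference between the groups was not detectable at this depth. Of the 3 breakdown genes, Smox alone had groups that did not overlap. Smox was picked for its difference in this contrast, so nothing is read from that.

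For all 3 regulators of ornithine decarboxylase, control replicate 1 was the highest or the lowest of the 6 libraries. Azin1 (ENSMUSG00000037458; chr15:38487430-38519294) had 7032, 3339 and 2723 normalized counts in the controls and 3960, 3614 and 3551 after anti-CD73. Control replicate 1 had 2.32 times the mean of the other controls. The anti-CD73 libraries lay between it and them. The difference was -0.11 (SE 0.32) with all libraries and 0.30 without control replicate 1, and in that case the groups did not overlap.

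Oaz1 (ENSMUSG00000035242; chr10:80826656-80829290) ran the other way, with 327, 566 and 586 normalized counts in the controls and 424, 457 and 425 after anti-CD73. Its level in control replicate 1 was 0.567 times the mean of the other controls. The difference was -0.13 (SE 0.23) and became -0.40 without control replicate 1. Oaz2 (ENSMUSG00000040652; chr9:65676548-65690300) had 294, 461 and 431 in the controls and 418, 408 and 386 after anti-CD73. For Oaz2, control replicate 1 was again the lowest library, and the difference went from 0.056 (SE 0.19) to -0.14 without it.

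**Figure D3:**
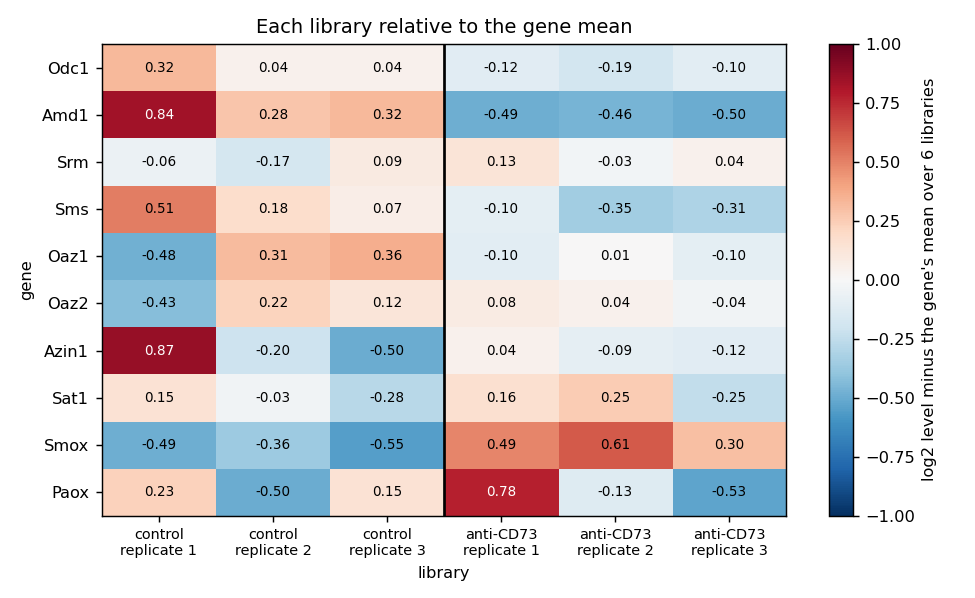
Each cell gives a gene's log2(normalized count + 1) in 1 library (columns) minus that gene's mean over the 6 libraries (rows by role), in red above and blue below. The column of control replicate 1 shows 0.87 for Azin1 and -0.48 and -0.43 for Oaz1 and Oaz2, while Smox is below its mean in the 3 controls and above it in the 3 anti-CD73 libraries.

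Without control replicate 1 the groups did not overlap for 7 of the 9 tested members, against 53.5% of all genes tested. Smox and Azin1 lay higher, against 25.7% of all genes tested, and Odc1, Sms, Amd1, Oaz1 and Oaz2 lay lower, against 27.8%. The spread within the anti-CD73 group was narrow for most members, with a median SD of 0.08 on the log2 scale against 0.23 within the controls. Over all genes tested the same medians were 0.13 and 0.28, and 7 of the 9 members, as 77.8% of all genes tested, had the wider spread in the controls. Amd1 had the narrowest spread of the members after anti-CD73, 0.017, on 169, 151 and 152 reads. It is the lowest picked among the members over 3 libraries, and no spread was tested. RefSeq lists the pseudogenes Oaz1-ps and Sms-ps beside Amd2, and no source used here says how reads that match more than 1 place were counted. The levels of Oaz1, Sms and Amd1 are uncertain to that extent.

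Genes that feed polyamine synthesis with ornithine, or compete for its precursor arginine, gave 0 calls among the 16 tested of 17, in either direction, at limma's adjusted p of 0.05. Of these, 10 lay higher and 6 lower, with a median of 0.13. By limma 5 of the 16 had an unadjusted p under 0.05 (4 higher, 1 lower), against 15.5% of all genes tested. With control replicate 1 left out limma called 6 of the 16 (5 higher, 1 lower), against 22.2% of all genes tested. Arg1, the arginase that makes ornithine in the cytosol, had 443, 128 and 157 normalized counts in the controls and 507, 1112 and 320 after anti-CD73. The groups overlapped through control replicate 1. Its difference was 1.44 (SE 0.57; limma adjusted p = 0.294), and 1.99 without that library (limma adjusted p = 0.0114). The smallest p in each direction belonged to genes of nitric oxide synthases, which consume arginine. Nos2 lay at 0.72 (SE 0.23; limma adjusted p = 0.218) and Nos1 at -1.34 (SE 0.32; limma adjusted p = 0.166), and Nos1 had groups that did not overlap. Without control replicate 1 both passed, Nos2 at 0.93 (limma adjusted p = 0.00602) and Nos1 at -1.71 (limma adjusted p = 0.00104).

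Genes of methionine and S-adenosylmethionine, the source of the aminopropyl groups, and of the salvage of methylthioadenosine, the by-product of Srm and Sms, gave 0 calls by limma among 11 tested of 12. Of these, 3 lay higher and 8 lower, with a median of -0.13. By limma 1 of the 11, a lower gene, had an unadjusted p under 0.05, against 15.5% of all genes tested. Limma called 2 of the 11 without control replicate 1 (1 higher, 1 lower), against 22.2% of all genes tested. Mat2a, the catalytic subunit of the enzyme that makes S-adenosylmethionine, had 3767, 1885 and 1987 normalized counts in the controls and 1776, 1639 and 1823 after anti-CD73. The groups did not overlap, and control replicate 1 was the highest library. The difference was -0.47 (SE 0.26; limma adjusted p = 0.422), and -0.15 without it. Its regulatory subunit Mat2b lay at -0.25 (SE 0.10; limma adjusted p = 0.306), the smallest p among the lower genes, and the salvage gene Apip at 0.45 (SE 0.29; limma adjusted p = 0.495), the smallest among the higher. Without control replicate 1, Apip passed at 0.74 (limma adjusted p = 0.0309) and Mat2b did not (-0.25; limma adjusted p = 0.0614).

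Transport genes gave 0 calls by limma among 7 tested of 11. Of the 7, 4 had an unadjusted p under 0.05 (2 higher, 2 lower), against 15.5% of all genes tested. Limma called 4 of the 7 without control replicate 1 (3 higher, 1 lower), against 22.2% of all genes tested. Gpc1, a glypican linked to polyamine uptake, had 1556, 4163 and 3900 normalized counts in the controls and 1176, 1078 and 1372 after anti-CD73. Every anti-CD73 library was below every control, and control replicate 1 was the nearest. Its difference was -1.29 (SE 0.36; limma adjusted p = 0.183), and -1.74 without that library (limma adjusted p = 0.000386). Slc12a8 lay at 1.34 (SE 0.41; limma adjusted p = 0.206) on few counts, 6.34 to 34.96 across the libraries, and at 1.53 without control replicate 1 (limma adjusted p = 0.0331). Slc3a2, the heavy chain shared by amino acid exchangers and tied to polyamine export, differed by 0.018 (SE 0.10; limma adjusted p = 0.951).

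Hypusination, the use of spermidine to modify the translation factor eIF5A, gave 0 calls by limma among 4 genes. Of the 4, 0 had an unadjusted p under 0.05, against 15.5% of all genes tested. Eif5a stood between 14872 and 16885 normalized counts in the controls and between 14890 and 16492 after anti-CD73, and differed by -0.029 (SE 0.11; limma adjusted p = 0.926). The minor form Eif5a2 lay at 0.83 (SE 0.69; limma adjusted p = 0.602). Control replicate 1 had 4.67 times the mean Eif5a2 level of the other controls, and without it the difference was 1.51 (limma adjusted p = 0.0829).

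The MYC network, whose activator drives Odc1 transcription in many cells, gave 0 calls by limma among 10 tested of 12, with 5 higher and 5 lower. Of the 10, 3 had an unadjusted p under 0.05 (2 higher, 1 lower), against 15.5% of all genes tested. With control replicate 1 left out limma called 4 of the 10 (2 higher, 2 lower), against 22.2% of all genes tested. Myc had 19468, 16094 and 16380 normalized counts in the controls and 10996, 12695 and 14997 after anti-CD73. All 3 anti-CD73 libraries were below all 3 controls. Its difference was -0.43 (SE 0.15; limma adjusted p = 0.248). Mnt, a repressor that competes with Myc for their common partner Max, lay at 0.46 (SE 0.12; limma adjusted p = 0.178), also without overlap. Without control replicate 1, Mnt passed at 0.37 (limma adjusted p = 0.0186) and Myc did not (-0.34; limma adjusted p = 0.0715). Max itself differed by -0.13 (SE 0.12), and by -0.023 without control replicate 1. Of the 7 paralogues and regulators only Pmf1 passed the filter on low values, with a difference of 0.019 (SE 0.18; limma adjusted p = 0.973), which turned to -0.17 without control replicate 1 (limma adjusted p = 0.261). The antizyme inhibitor paralogue Azin2 had 10, 18 and 14 reads in the control libraries and 8, 5 and 1 in the anti-CD73 libraries, under the filter.

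**Figure D4:**
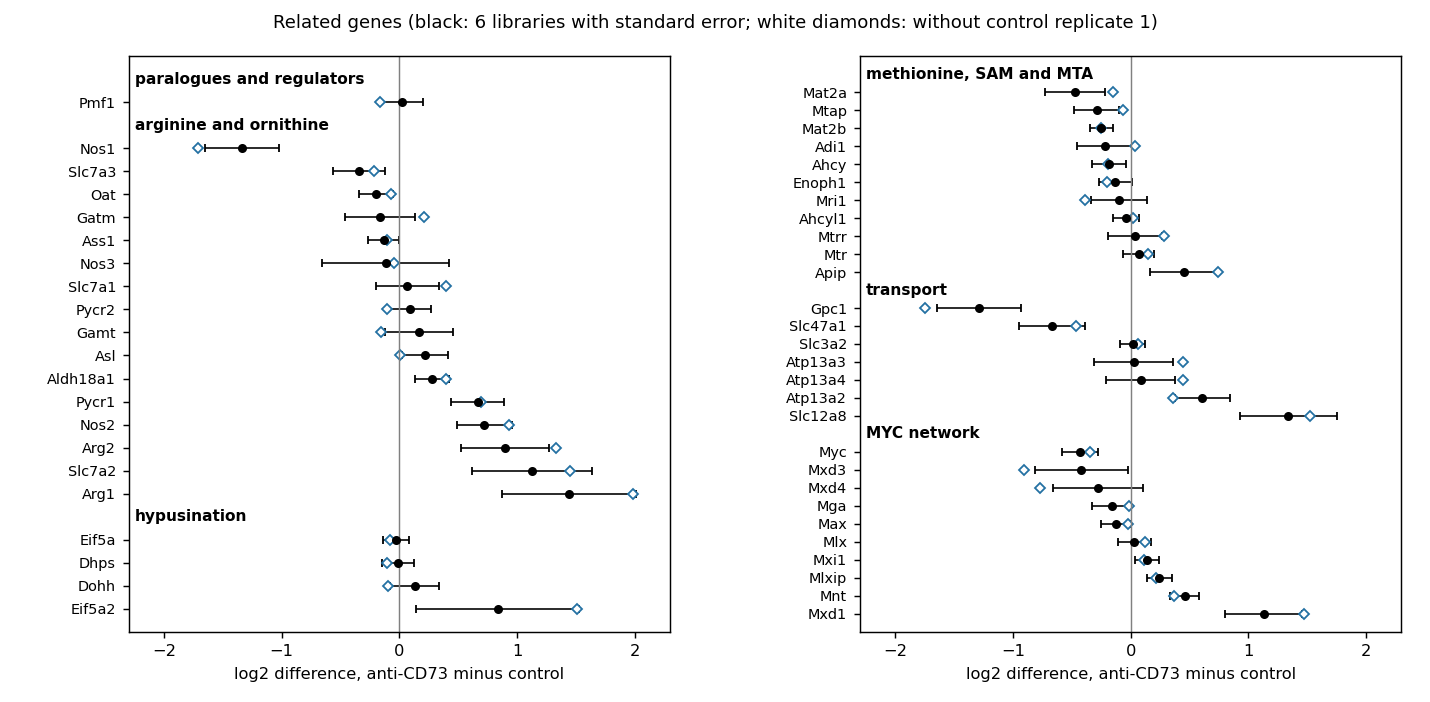
Difference of log2(normalized count + 1), anti-CD73 minus control (horizontal axis), for the 49 tested genes of supply, use, transport and regulation of polyamines; black points with standard errors use all 6 libraries and white diamonds leave out control replicate 1. Arg1 moves from 1.44 to 1.99 and Gpc1 from -1.29 to -1.74 when that library is left out.

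Across these 63 related genes, 49 were tested and 0 were called by limma or by edgeR's quasi-likelihood test, while 13 had an unadjusted p under 0.05, or 26.5% against 15.5% of all genes tested by limma (15.2% by edgeR). DESeq2 called 4, against 4.83% of all genes tested, with Mnt and Mxd1 higher (against 2.86%) and Nos1 and Gpc1 lower (against 1.97%). These shares are of 12262 genes, of which DESeq2 gave an adjusted p to 12018, and the rest count as not called. Without control replicate 1, limma called 16 of the 49, 11 higher and 5 lower, against 22.2% of all genes tested (11.9% higher and 10.3% lower). Mxd1, another repressor of the MYC network and named after its values were seen, had 4282, 2455 and 1823 normalized counts in the controls and 6866, 6894 and 4246 after anti-CD73. Its difference was 1.13 (SE 0.33; limma adjusted p = 0.193), and 1.47 without control replicate 1 (limma adjusted p = 0.00311). Mxd3 and Mxd4 of the same list went the other way. They lay at -0.42 and -0.28 with all 6 libraries, with groups that overlapped. With control replicate 1 left out they passed at -0.90 (limma adjusted p = 0.00622) and -0.77 (limma adjusted p = 0.00289).

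Markers of several cell types were compared without a test, and only the neutrophil and fibroblast sums were separate between the groups. Medians are given with all 6 libraries and then without control replicate 1. Neutrophil markers, 7 of 9 tested higher with medians of 0.89 and 0.39, summed to between 5859 and 7936 normalized counts in the controls and between 8579 and 15267 after anti-CD73, without overlap. Macrophage markers, 12 of 12 higher with medians of 0.64 and 0.94, summed to between 9055 and 17201 in the controls and between 14808 and 24296 after anti-CD73. Of these neutrophil and macrophage genes, Camp alone was at 0 in any library. Fibroblast markers, 5 of 8 tested higher with medians of 0.16 and 0.36, summed to between 4095 and 5131 in control libraries and between 5188 and 6071 in anti-CD73 libraries, without overlap. T cell markers (9 of 9 higher; medians 0.69 and 1.35), dendritic markers (7 of 7 tested; 0.58 and 0.83) and endothelial markers (5 of 5 tested; 0.96 and 0.89) lay higher, with sums that overlapped between the groups. T cell sums ran from 138 to 593 in control libraries and from 282 to 537 in anti-CD73 libraries, dendritic sums from 362 to 883 and from 696 to 1097, and endothelial sums from 589.7 to 1112 and from 1104 to 1748, with Cd209a and Tek at 0 in some library. Of 7 B and NK cell markers 3 were tested, with 1 higher and 2 lower and medians of -0.22 and -0.063. They summed to between 100 and 238 in the controls and between 117 and 257 after anti-CD73, with Ncr1 at 0 in some library. Erythroid markers lay lower for 5 of 5, with medians of -0.73 and -1.64, and summed to 7845 in control replicate 1, 55529 and 58716 in the other controls, and between 8412 and 30978 in anti-CD73 libraries. Epithelial markers, 1 of 3 tested higher with medians of -0.29 and -0.16, summed to between 1961 and 4669 in the controls and between 2140 and 2710 after anti-CD73, with Krt5, Krt7, Krt14, Krt19 and Cldn4 at 0 in at least 1 library each. The part of these cell types in the values of Smox, Amd1, Sms, Odc1, Arg1 and Mxd1 was not tested. Of 16 proliferation genes 8 lay higher and 8 lower, with a median of 0.0023.

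The genes whose pattern over the 6 libraries was most like that of Smox were Dennd4b (Pearson r of 0.999), the homeobox gene Hlx (0.995) and the adaptor gene Sh3bp2 (0.991), among 10244 genes with a mean of at least 50. Hlx had 53.8, 73.5 and 58.4 normalized counts in the controls and 179, 209 and 140 after anti-CD73. For Amd1 the nearest were Mff, Tnfaip6 and Nploc4 (0.994, 0.994 and 0.992). For Sms they were Pon2, Nr4a2 and Atp5f1 (0.995, 0.994 and 0.993). Pon2 had 932, 810 and 747 normalized counts in the controls and 700, 611 and 605 after anti-CD73. Nr4a2 had 660, 424 and 412 normalized counts in the controls and 301, 226 and 225 after anti-CD73. Uba3, Tns3 and Mbtps2 were nearest to Azin1 (at least 0.999 each). These likenesses are a description over 6 points that share libraries and scaling, picked as the highest of many.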

How the data were processed

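Bulk RNA-seq values of 6 mouse tumour libraries were used, 3 control and 3 anti-CD73, grouped by the sample titles and matched to columns by the sample descriptions. The table holds signal values, deposited as read counts per gene after scaling with DESeq, per the labels. The submitters' processing notes list Bowtie 0.12.7 and mm10 and give neither a role. No source used here names the counter or annotation release. All values were whole multiples of 1 read (100% within 0.01), so reads were recovered by division. The fit was two-sided limma-trend without a block (limma 3.58.1, R 4.3.3), of log2(normalized count + 1), over 12262 genes with a mean of at least 10, with Benjamini-Hochberg adjustment over all of them and a threshold of 0.05. A pseudocount understates changes of genes with few reads. edgeR 4.0.16 and DESeq2 1.42.0 on recovered reads were alternatives, beside other pseudocounts, filters and scalings, a replicate block and each library left out. Runs of edgeR and DESeq2 without control replicate 1 were chosen after seeing the data. On simulated data for this comparison over 12262 genes, the share of changed genes found by limma was 49.1% at 2-fold and 87.2% at 4-fold, and 6.8% of calls were false. The simulation drew each gene independently and held no library that stood apart as control replicate 1 does. Its shares therefore need not hold for these libraries, in which limma called 0 genes. The members, lists and tests were chosen with earlier results of these data known. Named related genes were the smallest p in each direction per list and Arg1, Mat2a, Slc3a2, Eif5a, Myc and Azin2, and for likeness the 3 highest r per member, of which some are given. Gene spans are those of RefSeq for GRCm38.p6, 1-based, matched by symbol.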

Additional observations from a re-analysis of the deposited data

How the results depend on the processing

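Over 17 other settings, Smox (0.86 to 1.02), Amd1 (-1.07 to -0.78), Sms (-0.60 to -0.35), Odc1 (-0.32 to -0.056) and Srm (0.032 to 0.16) kept their sign in all 17. Sat1 and Oaz1 kept it in 16, and Azin1 and Oaz2 in 14, losing it in the 3 runs without control replicate 1. These settings are not independent. The filters and the replicate block cannot change a member's difference, and those 3 runs drop the same library. The members were chosen with this contrast known, so a kept sign is a description and not support. Quantile normalization moved Odc1 to -0.056, by more than its spread within groups. DESeq2 called 592 genes (351 higher, 241 lower) and 4 related genes (2 higher, 2 lower), against 0 by limma. With each library left out in turn limma called 0 to 2724 genes (0 to 1465 higher, 0 to 1259 lower) and 0 to 16 related genes (0 to 11 higher, 0 to 5 lower), the highest of each without control replicate 1. Without that library edgeR called 2703 genes (1513 higher, 1190 lower) and 16 related (11 and 5), and DESeq2 2679 (1509 and 1170) and 15 (10 and 5). The cause was not tested. A replicate block by title number left 0 calls. Deviations of libraries with the same title number correlated by 0.189, -0.096 and 0.262, so these numbers were not taken to pair them. Replicate 2 of neither group correlated best with its own number. The sample descriptions number some libraries otherwise than the titles, and a block by those numbers was not tried. Depth limits Paox and Azin2, with at most 18 reads in a library.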

Other observations

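The balance of Azin1 to Oaz1 counts within a library, the inhibitor against the antizyme it binds, was 21.5 in control replicate 1, 5.89 and 4.65 in the other controls, and 9.34, 7.90 and 8.36 in the anti-CD73 libraries. The anti-CD73 values lay close together and between those of the controls. Odc1 per Amd1 was 82.0, 99.6 and 96.9 in the controls and 153, 143 and 155 after anti-CD73, with every anti-CD73 value above every control value. Both ratios are given as values, with no test.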
